A study of Mus musculus with 63 samples.

Results

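Mature miRNAs of LTL+ proximal tubular (PT) cells were compared between sham-operated mice and mice whose ureteric obstruction had been reversed (R-UUO), to find which changes were present after reversal. The comparison takes 8 small RNA-Seq (sRNA-Seq) libraries, 4 sham and 4 R-UUO, of the 63 libraries of the series. Every annotated miRNA locus was included, which gave 330 loci with enough reads to test of 2110 loci in the table. A further 879 loci had no read in any LTL+ library, and 901 had too few reads.

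All mice were male C57BL/6 mice aged 8 to 12 weeks. In R-UUO the distal ureter was ligated for 7 days and then reimplanted into the bladder, and the kidney was taken after 14 days of reversal. UUO-2 and UUO-7 mice, 4 each, were studied after 2 and 7 days of obstruction without reversal. PT cells were sorted from digested kidney cortex as CD45-, CD31- cells that bound LTL, a lectin from Lotus tetragonolobus that marks the brush border of proximal tubules. The LTL gate keeps only cells that still carry this sugar, and the sequenced mice were those nearest to their group's mean for the tubular injury marker KIM-1. The time between operation and harvest is not given for sham, and R-UUO mice had a second operation, so reversal, time and surgery cannot be told apart. In sorted bulk samples fewer cells of a type and less RNA per cell cannot be told apart either.

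MiRNAs are short RNAs that guide Argonaute proteins to messenger RNAs, mainly through the seed, bases 2 to 8 from the 5′ end, and so lower the output of their targets. Loci that lie close together on one strand are often cut from one transcript, and loci with the same seed can recognise overlapping targets. In the healthy proximal tubule miR-192-5p and miR-194-5p are abundant and mark the epithelium. Members of the miR-200 family hold epithelial cells in their state by repressing Zeb1 and Zeb2, and miR-21 is induced in many injured tissues.

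The sequences below are those of the loci on which the results turn, from RefSeq on GRCm38.p6, with the seed in capitals. The first set comes from the cluster on chromosome 6 with the largest median rise of any cluster, and its members have 3 different seeds.
miR-183-5p: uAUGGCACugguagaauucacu
miR-96-5p: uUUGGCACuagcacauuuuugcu
miR-182-5p: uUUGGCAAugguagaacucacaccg

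The next loci share their seeds with no other tested locus whose sequence was matched. They are shown because miR-204-5p and miR-653-5p had large rises in every library, and miR-192-5p was the most abundant locus that fell.
miR-204-5p: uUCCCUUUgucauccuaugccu
miR-653-5p: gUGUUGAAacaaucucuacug
miR-192-5p: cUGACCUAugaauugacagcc

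The miR-181 family is shown because its members share the seed ACAUUCA and yet were called in both directions.
miR-181a-5p: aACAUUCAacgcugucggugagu
miR-181b-5p: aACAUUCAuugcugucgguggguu
miR-181c-5p: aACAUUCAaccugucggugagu
miR-181d-5p: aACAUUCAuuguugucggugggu

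In the miR-200 family the members of one cluster were called and those of the other were not, although each seed occurs in both clusters. MiR-141-3p and miR-200a-3p share one seed, and miR-200c-3p and miR-200b-3p share the other.
miR-141-3p: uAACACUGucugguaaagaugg
miR-200a-3p: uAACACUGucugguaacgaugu
miR-200c-3p: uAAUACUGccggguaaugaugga
miR-200b-3p: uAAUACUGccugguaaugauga

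The last pair are the most abundant loci that rose, and they share a seed.
miR-10a-5p: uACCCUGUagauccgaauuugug
miR-10b-5p: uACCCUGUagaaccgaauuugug

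Levels are given as CPM, read counts divided by a library size that was corrected by trimmed-mean scaling over the 16 LTL+ libraries (a factor below 1 raises a library's values), in replicate order 1, 2, 3 and 4 for sham, 2, 3, 4 and 5 for UUO-7, and 1, 2, 4 and 5 for R-UUO. Mature miRNAs are of nearly equal length, but how well each is captured in a library was not measured, so that abundant refers to reads and not to molecules. Sequencing depth ran from 622689 to 987306 reads on miRNA loci in sham, from 616565 to 3122831 in R-UUO and from 1665115 to 5093294 in UUO-7. As reads were not tagged with molecular identifiers, every floor and interval here describes counting error alone.

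R-UUO replicate 1 lay apart from the rest. Its 10 most abundant loci held 86.4% of its reads, miR-10a-5p held 40.5% (95% exact interval 40.4 to 40.6) and miR-10b-5p held 31.0% (30.9 to 31.1). The share of miR-10a-5p was 8.28% to 9.41% in sham and 20.1% to 25.0% in the other R-UUO libraries. MiR-192-5p held 0.806% of its reads (0.796 to 0.816), against 14.9% to 17.6% in sham and 4.26% to 7.23% in the other R-UUO libraries. Its scaling factor was 0.427, against 0.996 to 1.13 in the other R-UUO libraries, and its correlation with them over the tested loci was 0.918 to 0.927. The library was kept, and the results are also given without it. Libraries from the same mouse did not stand apart in ECs or F4/80hi macrophages, where the mean correlation with the rest of the group was 0.978 and 0.977, but in PDGFR-β+ cells this mean was 0.938, against 0.963 to 0.973 for the other mice there.

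**Figure D1:**
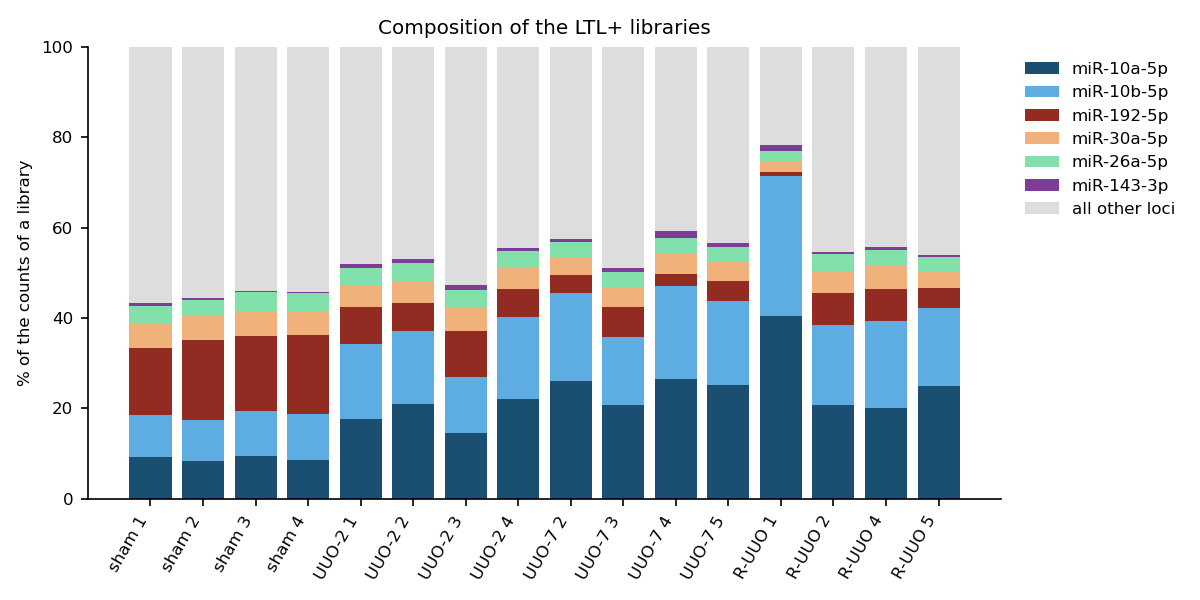
Share of each LTL+ library's miRNA counts (y axis, percent, 1 stacked bar for each of 16 libraries) held by miR-10a-5p, miR-10b-5p, miR-192-5p, miR-30a-5p, miR-26a-5p, miR-143-3p and all other loci. In R-UUO replicate 1 miR-10a-5p and miR-10b-5p hold 40.5% and 31.0% and miR-192-5p holds 0.806%, a makeup that no other bar shows.

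A locus was called changed when its edgeR quasi-likelihood adjusted p (Benjamini-Hochberg over all tested loci) was at most 0.05 and its fold change at least 1.5. Between R-UUO and sham, 85 loci were higher (25.8% of those tested) and 43 were lower (13%), together 128 (38.8%), and 177 had an unadjusted p under 0.05. Without R-UUO replicate 1, 63 loci were higher (18.8% of 336 tested) and 29 lower (8.63%). Called with and without this library, in the same direction, were 91 loci, while 36 called loci were lost (22 higher and 14 lower) and 1 was no longer tested. The lost loci had a median size of change of 0.89 on the log2 scale when the library was left out. Replicate 1 had the highest R-UUO value in 69 of the 85 higher loci and the lowest in 32 of the 43 lower loci. These ranks depend on its scaling factor, since with library size alone it was the highest in 34 and the lowest in 41.

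**Figure D2:**
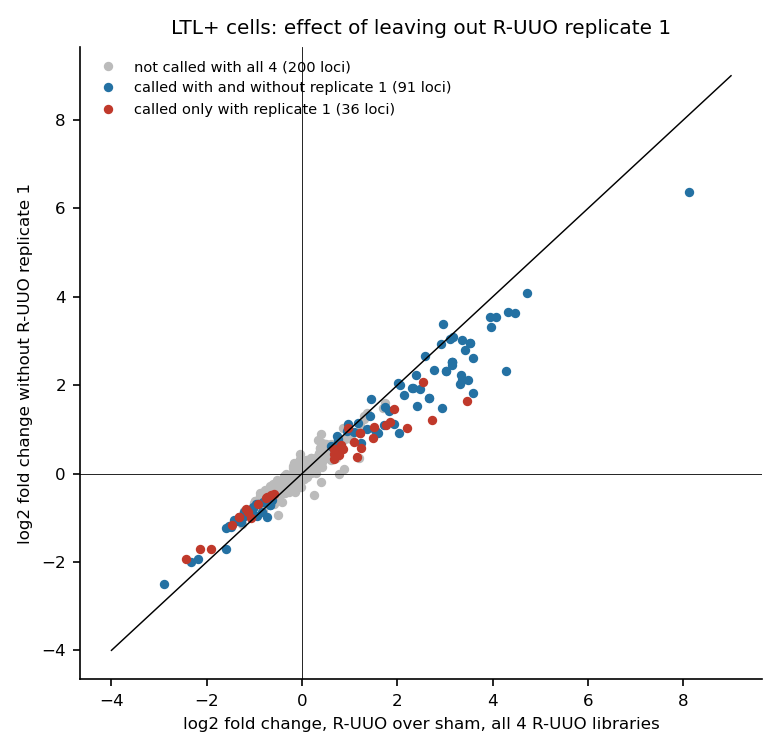
Log2 fold change of R-UUO over sham with all 4 R-UUO libraries (x axis) and without R-UUO replicate 1 (y axis), 1 point per locus tested in both fits, with the line of equality. Loci called both ways (91, blue) and only with replicate 1 (36, red) lie mostly below the line where the change is a large rise, and loci not called with all 4 libraries are grey.

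Libraries of the groups did not overlap, with every R-UUO value above every sham value, at 65 loci (19.7%), and lay the other way round at 55 loci (16.7%). The median log2 fold change over all tested loci was 0.03. Scaling by library size alone moved this median to -0.41 and gave 51 higher and 65 lower loci, in place of 85 and 43, so the balance between higher and lower calls depends on the scaling. No called locus among those chosen by rule changed sign between the scalings. Because nothing says that reads were assigned by strand, or how reads that fit several loci were placed, loci with identical copies and loci antisense to each other are uncertain.

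The cluster of miR-183, miR-96 and miR-182, known from sensory epithelia and from injured or transformed epithelial cells, had the largest median rise of any cluster after reversal. All 3 tested loci, at chr6:30165962-30169732 on the minus strand, were higher. MiR-183-5p (Mir183) had 51.8, 11.5, 21.7 and 23.5 CPM in sham and 1519, 522, 275 and 540 CPM in R-UUO. Every R-UUO library was above every sham library, and replicate 1 was the highest. The log2 fold change was 4.71 ± 0.52 (SE, n = 4 per group; edgeR adjusted p = 7.69e-06), and 4.07 without replicate 1.

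MiR-182-5p, the most abundant of the cluster, had 873, 461, 352 and 449 CPM in sham and 23308, 7460, 3935 and 8204 CPM in R-UUO. The groups again lay far apart, and the lowest R-UUO library was above the highest sham library. Its log2 fold change was 4.33 ± 0.49 (edgeR adjusted p = 7.88e-06), and 3.65 without replicate 1. MiR-96-5p had 1 read in sham replicate 1 and none in the other sham libraries, where 3 reads would be 3.83, 2.70 and 3.35 CPM. It reached 303, 30.2, 22.8 and 31.9 CPM in R-UUO, so that the size of the change rests on a group with 1 read in all. Summed over libraries and set against the scaled library sizes, the ratio was 414 with a 95% exact interval of 74.0 to 16386. The scaling factor of replicate 1, 0.427, enters this ratio. Without replicate 1 the ratio was 109 with an interval of 19.0 to 4343.

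**Figure D3:**
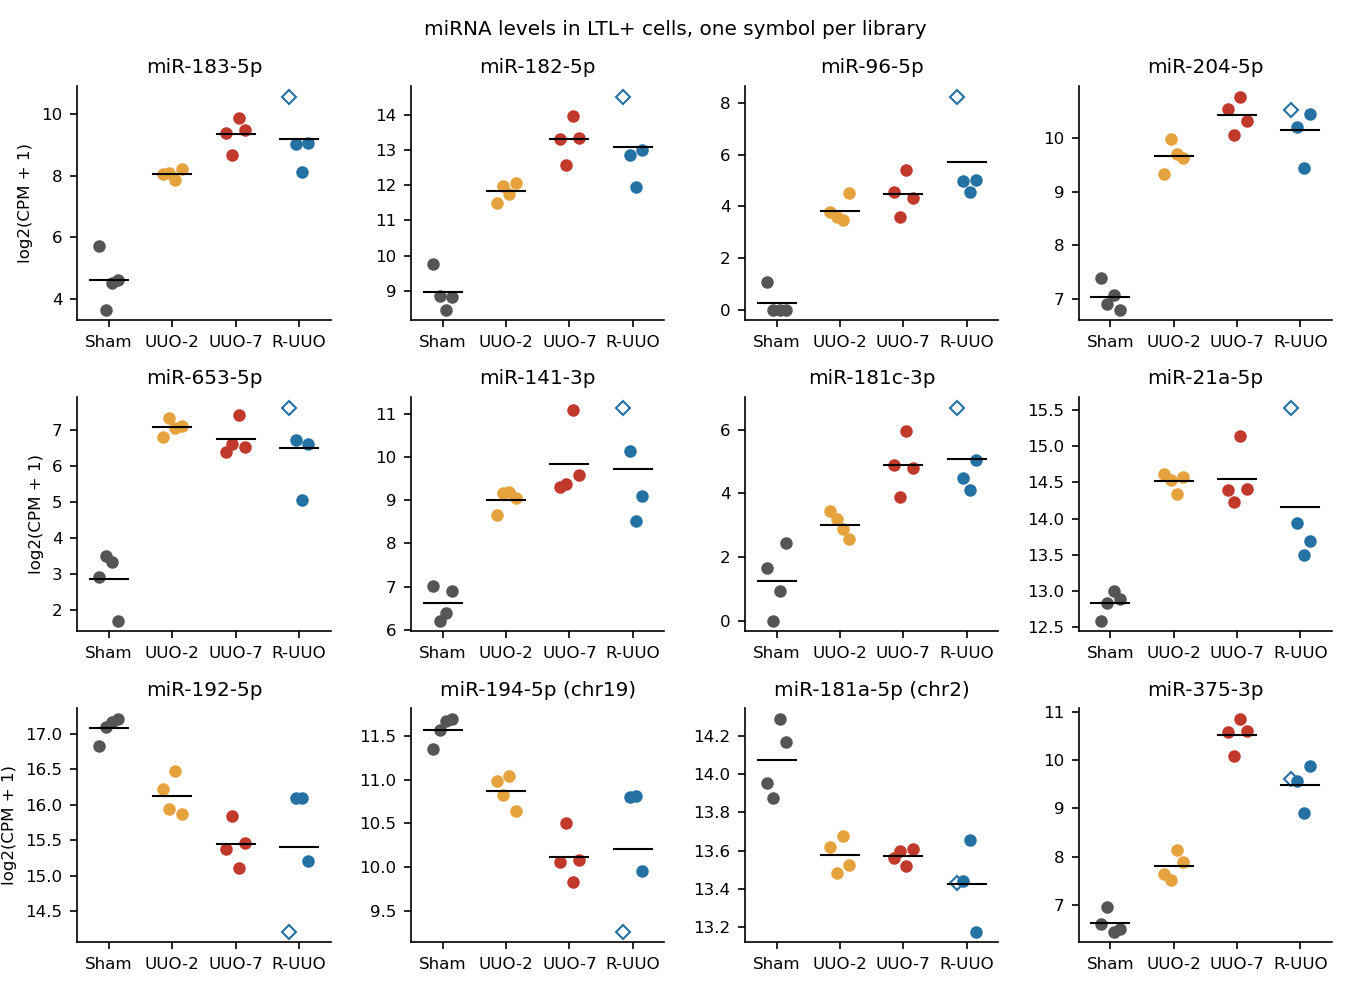
Level of 12 loci as log2(CPM + 1) (y axes, which do not start at 0) in the 4 conditions (sham, both obstruction times and R-UUO), 1 symbol per library, with a line at the group mean and an open diamond for R-UUO replicate 1. MiR-183-5p, miR-204-5p and miR-653-5p have every R-UUO library above every sham library, and miR-192-5p and miR-194-5p have every R-UUO library below.

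Among epithelial miRNAs, miR-204-5p, which lies in an intron of Trpm3 at chr19:22750610-22750631, rose in every R-UUO library. It had 166, 119, 133 and 110 CPM in sham and 1467, 1175, 689 and 1396 CPM in R-UUO. No library of either group came near the other group, and replicate 1 lay close to replicate 5. The log2 fold change was 3.16 ± 0.25 (edgeR adjusted p = 1.49e-07), and 3.09 without replicate 1. MiR-653-5p, in an intron of Calcr at chr6:3721355-3721375, went from 6.47, 10.2, 9.02 and 2.24 CPM in sham to 197, 104, 32.6 and 96.5 CPM in R-UUO. Its lowest R-UUO library was still above every sham library, with a log2 fold change of 3.94 ± 0.50 (edgeR adjusted p = 2.76e-05), and 3.54 without replicate 1.

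In the miR-200 family, repressors of Zeb1 and Zeb2, the cluster at chr6:124717917-124718346 had 3 of 3 tested loci higher, and the cluster at chr4:156053916-156055742 had 0 of 5 called. MiR-141-3p had 127, 72.9, 82.1 and 119 CPM in sham and 2263, 1131, 365 and 543 CPM in R-UUO. The groups did not overlap, and the R-UUO libraries were spread widely. Its log2 fold change was 3.42 ± 0.53 (edgeR adjusted p = 0.000134), and 2.80 without replicate 1. MiR-200c-3p, named after its values were seen, rose from 16.3 ± 11.8 CPM (SD, n = 4) to 97.0 ± 44.0 CPM, a log2 fold change of 2.59 ± 0.43, and 2.67 without replicate 1.

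In the other cluster miR-200b-3p had 4175, 3624, 3577 and 3701 CPM in sham and 5434, 5097, 5298 and 4653 CPM in R-UUO. These groups did not overlap either, but the log2 fold change of 0.44 ± 0.11 (edgeR adjusted p = 0.00505) stayed under the fold threshold. MiR-200a-3p, which has the seed of miR-141-3p, had a log2 fold change of 0.19 ± 0.20 (edgeR adjusted p = 0.442). Over the whole family 3 of 8 tested loci were higher and none lower, with a median of 0.32 beside 0.03 for all loci, and without replicate 1 the count was 2, miR-141-5p being lost. Beside this, 25.8% of all tested loci were higher, and 18.8% without replicate 1.

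MiR-375-3p, known from pancreatic islets and other epithelia, had 96.0, 123, 85.7 and 89.5 CPM in sham, 1530, 1088, 1861 and 1548 CPM in UUO-7 and 779, 757, 479 and 948 CPM in R-UUO. The R-UUO libraries lay between the other groups, with no overlap on either side. Against sham the log2 fold change was 2.91 ± 0.23 (edgeR adjusted p = 1.49e-07), and 2.93 without replicate 1. Against UUO-7 it fell by 1.02 ± 0.21 on the log2 scale (edgeR adjusted p = 0.0329).

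The miR-181 family, which acts in lymphocyte development and in inflammatory signalling, divided by locus. The cluster in an intron of Nanos3 at chr8:84178759-84178945 had 3 of 3 loci higher, while miR-181a-5p and miR-181b-5p were lower at both of their clusters, on chromosomes 1 and 2. MiR-181c-3p had 2.16, 0, 0.902 and 4.48 CPM in sham and 103, 21.3, 16.3 and 31.9 CPM in R-UUO. The R-UUO libraries were all higher, from a sham level of a few reads, and the log2 fold change was 4.47 ± 0.78 (edgeR adjusted p = 0.00036), and 3.63 without replicate 1.

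MiR-181c-5p and miR-181d-5p, which carry the family seed and were named after their values were seen, had log2 fold changes of 3.15 ± 0.42 and 3.35 ± 0.33, and 2.53 and 3.01 without replicate 1. MiR-181a-5p at its chromosome 2 locus, the most abundant of the family, had 15910, 15058, 20081 and 18441 CPM in sham and 11018, 11100, 12912 and 9232 CPM in R-UUO. Every R-UUO library was below every sham library. The log2 fold change was -0.65 ± 0.13 (edgeR adjusted p = 0.00107), and -0.62 without replicate 1. Both copies of miR-181a-5p give the same mature sequence, so how reads were divided between chromosomes 1 and 2 is uncertain, and the chromosome 1 locus (-0.64) was not called with no filter or with the replicate block (-0.57 in both). Of the 36 seeds that 2 or more tested loci share, 2 had calls in both directions, and this seed was one. The other was CAAAGCA, of miR-330-3p and miR-6240, and both of these calls were lost without replicate 1.

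The clusters of miR-23, miR-27 and miR-24, which are known from vascular cells and muscle, were called unequally. At chr8:84208563-84208896, 4 of 4 tested loci, from 3 hairpins, were higher, and at the paralogous cluster on chromosome 13, 1 of 4 was. Over both clusters 5 of 8 were higher, and 4 without replicate 1, beside 25.8% and 18.8% of all tested loci. Of the chromosome 8 loci, miR-23a-3p, named after its values were seen, rose from 64.9 ± 19.3 CPM in sham to 360 ± 240 CPM in R-UUO. Its log2 fold change was 2.47 ± 0.37, and 1.92 without replicate 1. MiR-23b-3p, from chromosome 13, had 619, 446, 604 and 628 CPM in sham and 1102, 1135, 1201 and 951 CPM in R-UUO. These groups were well apart and tight. The log2 fold change was 0.93 ± 0.13 (edgeR adjusted p = 8.14e-05), and 0.96 without replicate 1, but this call was lost when libraries were scaled by their size alone. MiR-24-3p comes in identical copies from both clusters and overlaps miR-3074, and its chromosome 8 locus was not called without replicate 1.

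**Figure D4:**
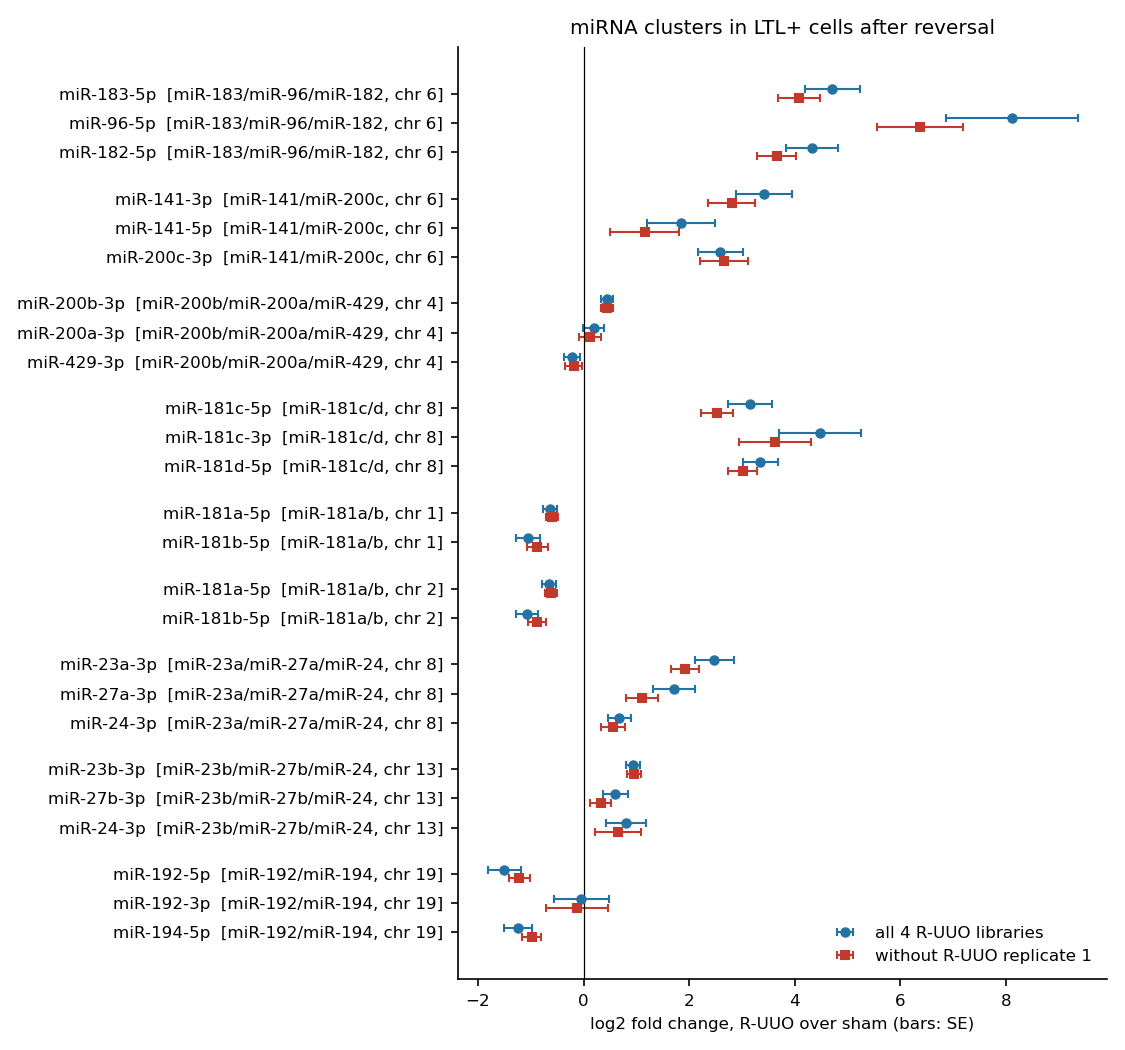
Log2 fold change of R-UUO over sham (x axis, bars are SE) for loci of 9 genomic clusters (rows, grouped by cluster), with all 4 R-UUO libraries (blue circles) and without replicate 1 (red squares). The loci of miR-181c and miR-181d lie above 2 and those of miR-181a and miR-181b below 0, and the miR-141 and miR-200c loci lie to the right of miR-200b-3p, miR-200a-3p and miR-429-3p.

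The loci of the Hox clusters, miR-10a-5p and miR-10b-5p, were the most abundant that rose, and R-UUO replicate 1 stood far above the other libraries. MiR-10a-5p, at chr11:96317186-96317208, had 71632, 65867, 83824 and 74768 CPM in sham and 949266, 201035, 202282 and 221913 CPM in R-UUO. Even the lowest R-UUO library was above every sham library, and replicate 1 was far above the rest. As fitted, its log2 fold change was 2.41 ± 0.43 (edgeR adjusted p = 0.000481), and 1.53 ± 0.20 without replicate 1. MiR-10b-5p, in introns of Hoxd3 and Hoxd4, had 72675, 73236, 89891 and 89021 CPM in sham and 726683, 170076, 194012 and 154040 CPM in R-UUO, with a log2 fold change of 1.94 ± 0.41, and 1.12 ± 0.21 without replicate 1. In the group of miR-10 and miR-196 3 of 10 tested loci were higher, with a median of 0.42, and 2 without replicate 1, which is near the shares over all tested loci (25.8% and 18.8%).

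MiR-100-5p, of a family that represses mTOR, had 17.3, 7.67, 6.32 and 5.60 CPM in sham and 275, 61.2, 47.2 and 57.9 CPM in R-UUO. The groups did not overlap, and the log2 fold change was 3.58 ± 0.57, falling to 2.62 without replicate 1. The related miR-125a-5p went from 7291 ± 618 to 15539 ± 4079 CPM, with a log2 fold change of 1.09 ± 0.18, and 0.93 without replicate 1, a call lost with library size alone (0.57). Over miR-99, miR-100 and miR-125, 3 of 11 tested loci were higher with and without that library, beside 25.8% and 18.8% of all tested loci.

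On chromosome X the cluster of miR-322 (of the seed family of miR-15 and miR-16, which restrains the cell cycle), miR-351, miR-542 and miR-450b, at 53048044-53054327, had 5 of 5 loci higher with all R-UUO libraries. The 5 loci come from 4 hairpins, and 25.8% of all tested loci were higher. MiR-450b-5p had 4, 0, 1 and 2 reads in sham and 71, 17, 4 and 6 in R-UUO. For miR-542-3p these were 0, 1, 4 and 0 in sham and 49, 7, 3 and 7 in R-UUO. MiR-322-5p had 46.4, 24.3, 37.9 and 50.4 CPM in sham and 1491, 89.4, 189 and 143 CPM in R-UUO. All R-UUO libraries were higher, 3 of them by a far smaller margin than replicate 1. Over sham its log2 fold change of 3.59 ± 0.71 (edgeR adjusted p = 0.00109) became 1.83 ± 0.31 without replicate 1.

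The miR-17 to miR-92a cluster on chromosome 14, which promotes proliferation, had 5 of 7 tested loci higher. MiR-19a-3p had 2.16, 2.56, 0 and 13.4 CPM in sham and 140, 18.6, 29.3 and 10.6 CPM in R-UUO. The groups overlapped, since R-UUO replicate 5 was below sham replicate 4. Its log2 fold change was 3.49 ± 0.86 (edgeR adjusted p = 0.00494), and 2.11 without replicate 1. With its paralogs, 6 of 10 tested loci were higher and 1 lower (median 0.79), and without replicate 1 the counts were 4 and 1. Among all tested loci 25.8% were higher and 13% lower, and 18.8% and 8.63% without replicate 1. The related cluster of miR-106b, miR-93 and miR-25 had 0 of 6 called and a median of 0.04.

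MiR-205-5p, a marker of stratified epithelia in skin and gland, was called only with R-UUO replicate 1. It had 22.7, 3.83, 4.51 and 1.12 CPM in sham and 283, 19.9, 16.3 and 36.7 CPM in R-UUO. Sham replicate 1 lay within the R-UUO range. As fitted, its log2 fold change was 3.47 ± 0.98 (edgeR adjusted p = 0.0106) with all libraries and 1.64 ± 0.75 (edgeR adjusted p = 0.105) without replicate 1.

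Among other loci with large rises, miR-298-5p went from 1.56 ± 1.20 to 27.6 ± 19.6 CPM with a log2 fold change of 4.07 ± 0.61, and miR-224-5p from 1.53 ± 2.04 to 25.7 ± 20.9 CPM with one of 3.97 ± 0.72. Without replicate 1 these were 3.54 and 3.32, and both were still called. MiR-9-5p, a neuronal miRNA, and miR-9b-3p, which lies antisense to it, have the same counts in every library and cannot be told apart. MiR-9-5p has 3 identical tested copies, all of them called. Summed over the copies it rose from 21.3 ± 5.38 to 192 ± 150 CPM, with a log2 fold change of 3.17 ± 0.45, and 2.47 without replicate 1.

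Of the miRNAs of injury and inflammation, miR-21a-5p, in an exon of Vmp1 at chr11:86584120-86584141, had 6172, 7329, 8221 and 7569 CPM in sham and 47312, 15689, 11520 and 13250 CPM in R-UUO. Every R-UUO library was above every sham library, and replicate 1 was the highest. Over sham its log2 fold change was 1.58 ± 0.36 (edgeR adjusted p = 0.00257), and 0.92 ± 0.20 without replicate 1. Its passenger strand miR-21a-3p had 110 ± 19.0 CPM in sham and 134 ± 62.4 CPM in R-UUO and was not called (log2 fold change 0.29 ± 0.30).

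MiR-155-5p, which macrophages and lymphocytes induce on activation, had 7.55, 21.7, 11.7 and 22.4 CPM in sham and 68.3, 63.9, 37.5 and 84.0 CPM in R-UUO. The groups did not overlap, and replicate 1 did not stand out. Its log2 fold change was 2.02 ± 0.35 (edgeR adjusted p = 0.000348), and 2.05 without replicate 1. MiR-146b-5p, a brake on NF-kB signalling, went from 163 ± 26.3 to 279 ± 63.6 CPM, a log2 fold change of 0.78 ± 0.18 (edgeR adjusted p = 0.00303). MiR-132-3p, induced by CREB, went from 9.72 ± 4.28 to 22.5 ± 3.66 CPM, a log2 fold change of 1.18 ± 0.31. Both calls held without replicate 1, and neither held when libraries were scaled by size alone. MiR-147-3p, with at most 2 reads in any LTL+ library, was not tested.

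In the miR-34 family, targets of p53, both tested loci were higher, with log2 fold changes of 2.13 ± 0.47 for miR-34c-5p and 0.61 ± 0.20 for miR-34a-5p (edgeR adjusted p = 0.00225 and 0.0227). MiR-34c-5p had 8.63, 7.67, 12.6 and 7.83 CPM in sham and 67.6, 19.9, 45.6 and 30.9 CPM in R-UUO, with no overlap. MiR-34a-5p had 54.0, 39.6, 37.0 and 39.2 CPM in sham and 67.6, 62.5, 53.8 and 75.3 CPM in R-UUO, where sham replicate 1 reached the lowest R-UUO library. Its call was lost with library size alone, and also without sham replicate 2, 3 or 4, R-UUO replicate 2 or 5, or UUO-7 replicate 4, at 0.49 to 0.57. The hypoxia miRNA miR-210-3p had 8.12 ± 3.98 CPM in sham, 46.4 ± 17.3 CPM in UUO-7 and 16.1 ± 8.76 CPM in R-UUO. It was called at UUO-7 (log2 fold change 2.51 ± 0.51) and not in R-UUO (1.02 ± 0.53, edgeR adjusted p = 0.121).

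The lower loci were led in abundance by the tubular miR-192-5p, at chr19:6264857-6264877. It had 116763, 140349, 147854 and 152279 CPM in sham, 42558, 58807, 35255 and 45116 CPM in UUO-7, and 18886, 69908, 70208 and 37781 CPM in R-UUO. Every R-UUO library was below every sham library, and the R-UUO libraries spread over more than the UUO-7 range. As fitted, its log2 fold change was -1.50 ± 0.32 (edgeR adjusted p = 0.00166), and -1.21 ± 0.20 without replicate 1. Against UUO-7 the difference was 0.11 ± 0.31 (edgeR adjusted p = 0.92), and 0.41 ± 0.20 (adjusted p = 0.244) without replicate 1.

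MiR-194-5p, cut from the same transcript as miR-192-5p at its chromosome 19 copy, had 2606, 3019, 3254 and 3314 CPM in sham and 613, 1784, 1794 and 992 CPM in R-UUO. It lay lower in all 4 R-UUO libraries, with a log2 fold change of -1.24 ± 0.26 (edgeR adjusted p = 0.00185), and -0.98 without replicate 1. The group of miR-192, miR-194 and miR-215 had 3 of 5 tested loci lower, with a median of -1.07, and the same count without replicate 1. Over all tested loci 13% were lower and 25.8% higher, and 8.63% and 18.8% without replicate 1. MiR-215-5p, with at most 14 reads in any LTL+ library, was not tested. The miR-30 family, also abundant in kidney, had 2 of 12 loci higher and none lower, with a median of 0.03 and none called without replicate 1. Its most abundant member miR-30a-5p had a log2 fold change of 0.09 ± 0.17.

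MiR-29c-3p, of a family that represses collagen genes, had 353, 334, 338 and 386 CPM in sham and 193, 187, 225 and 128 CPM in R-UUO. The groups were tight and apart, with a log2 fold change of -0.95 ± 0.18 (edgeR adjusted p = 0.000936), the same without replicate 1. It was the 1 of 4 tested miR-29 loci to be called, and the median of the 4 was -0.72. MiR-92a-3p comes in 2 identical copies. Its chromosome X locus had 1192, 1040, 1397 and 1247 CPM in sham and 163, 415, 666 and 615 CPM in R-UUO, with a log2 fold change of -1.40 ± 0.32, while its more abundant chromosome 14 locus had 0.30 ± 0.14 and was not called. When the reads of both copies were summed, the log2 fold change of the miRNA was 0.12 and not called. The chromosome 14 locus holds most of that sum, so the sum does not show whether chromosome X fell. How reads were divided between the copies is uncertain.

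MiR-1247-5p, in an exon of Dio3os, had 91.7, 97.1, 191 and 144 CPM in sham and 12, 35.1, 53.8 and 75.3 CPM in R-UUO. All R-UUO libraries were lower, and the log2 fold change was -1.60 ± 0.41 (edgeR adjusted p = 0.00678), and -1.22 without replicate 1. The largest falls of all were at loci of high miRBase number. MiR-6538 had 2399, 3146, 1585 and 1945 CPM in sham and 34.5, 435, 360 and 386 CPM in R-UUO, and its log2 fold change was -2.90 ± 0.83 (edgeR adjusted p = 0.0116), and -2.50 without replicate 1. The level of miR-6538 also varied widely within other conditions, with 192, 130, 1203 and 191 CPM in UUO-2 and 173, 683, 57.9 and 304 CPM in UUO-7. MiR-6236 and miR-5119 had log2 fold changes of -2.34 ± 0.60 and -2.17 ± 0.48 and were called both ways. MiR-5100 (-2.44 ± 0.94), miR-5126 (-2.14 ± 0.72), miR-6238 (-1.91 ± 0.61), miR-6240 (-1.46 ± 0.49) and the antisense pair miR-3073a-3p and miR-3073b-5p were not called without replicate 1, and each of these calls was lost without some other library too, at the least sham replicate 1 for miR-6238 (-1.61).

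Of 20 tested let-7 and miR-98 loci 1 was higher and 1 lower, with a median of -0.15. The shares over all tested loci were 25.8% higher and 13% lower, and 18.8% and 8.63% without replicate 1. The pair miR-221 and miR-222 had 1 of 4 higher, and none without replicate 1. Of the 7 tested loci with the seed of miR-15 and miR-16, 2 were higher (miR-497a-5p and miR-322-5p) with a median of 0.15, and 1 with a median of 0.07 without replicate 1. The group of miR-199 and miR-214, expressed in fibroblasts, had 0 of 3 called and a median of -0.04.

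To ask which changes remained, R-UUO was set beside UUO-7, with the caution that both are compared with the same sham libraries. At UUO-7, 84 loci were higher (25.5%) and 58 lower (17.6%) than in sham. Of these 142 loci, 98 were also called in R-UUO in the same direction, 64 higher and 34 lower. The fit without R-UUO replicate 1 called 95 loci higher and 68 lower at UUO-7. In that fit 84 loci were called in both comparisons in the same direction. With all libraries, 44 of the 142 loci were not called in R-UUO, and 30 loci were called in R-UUO and not at UUO-7. MiR-183-5p, for example, had 667, 410, 935 and 715 CPM at UUO-7, within the range of R-UUO, and miR-204-5p had 1488, 1061, 1749 and 1277 CPM.

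The direct comparison of R-UUO with UUO-7 does not subtract sham levels, although sham libraries entered the filter, scaling and spread of the common fit, and gave 2 higher loci (0.606%) and 3 lower loci (0.909%), and 61 had an unadjusted p under 0.05. Without R-UUO replicate 1 there were 10 higher (2.98% of 336) and 5 lower (1.49%), 4.46% in all. MiR-190a-5p, in an intron of Tln2, had 60.4, 90.7, 75.8 and 83.9 CPM in sham, 22.6, 23.0, 15.4 and 19.1 CPM in UUO-7, and 30.0, 59.1, 96.1 and 29.9 CPM in R-UUO. The R-UUO libraries were all above UUO-7, and 2 of them reached or came near the sham range. Against sham miR-190a-5p was not called (-0.55 ± 0.32), but it was without R-UUO replicate 4 (-0.95). Its log2 fold change over UUO-7 was 1.41 ± 0.33 (edgeR adjusted p = 0.035), and 1.62 without replicate 1.

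MiR-501-3p, in an intron of Clcn5, a chloride transporter gene of the proximal tubule, had 106, 80.5, 84.8 and 73.9 CPM in sham, 91.4, 65.1, 95.6 and 93.7 CPM in UUO-7, and 146, 159, 152 and 126 CPM in R-UUO. It was higher in R-UUO than in every library of both other groups. Its log2 fold change was 0.75 ± 0.18 over sham (edgeR adjusted p = 0.00336) and 0.75 ± 0.17 over UUO-7 (edgeR adjusted p = 0.035), but the call over sham was lost when libraries were scaled by size alone.

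The 3 loci lower in R-UUO than in UUO-7 were miR-375-3p, the chromosome 14 locus of miR-92a-3p, and miR-92b-3p. MiR-92a-3p (chromosome 14) had 5480 ± 384 CPM in sham, 11288 ± 1031 CPM in UUO-7 and 6735 ± 1503 CPM in R-UUO, a log2 change of -0.74 ± 0.14 from UUO-7 (edgeR adjusted p = 0.031). MiR-92b-3p had 558 ± 25.0, 766 ± 93.3 and 412 ± 129 CPM, a log2 change of -0.89 ± 0.20 (edgeR adjusted p = 0.035). These calls also held without replicate 1. None of the 5 calls held when libraries were scaled by size alone or when only the 2 groups were fitted, and none held without any 1 sham library, R-UUO replicate 4 or UUO-7 replicate 2 or 5. MiR-21a-5p and miR-21a-3p, at -0.85 ± 0.21 and -1.39 ± 0.29, were lower than at UUO-7 only without replicate 1.

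**Figure D5:**
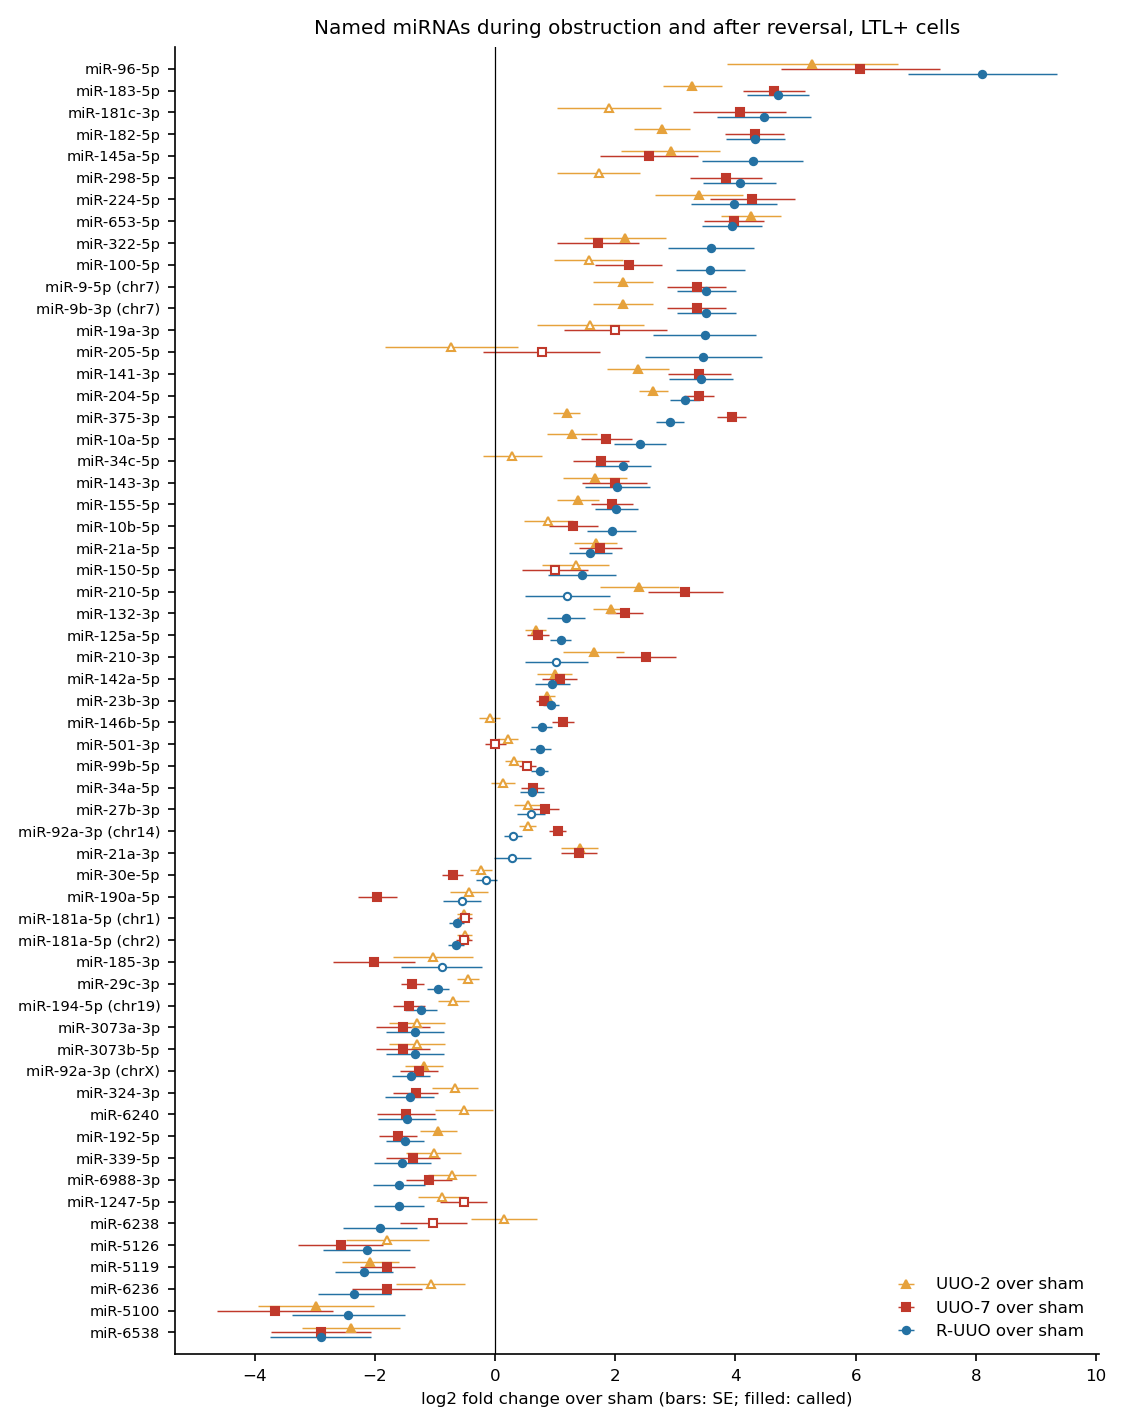
Log2 fold change over sham (x axis, bars are SE) of 59 loci (rows) at UUO-2 (triangles), UUO-7 (squares) and R-UUO (circles), filled where called. Most R-UUO circles lie near the UUO-7 squares, and miR-375-3p, miR-210-3p, miR-190a-5p and miR-92a-3p (chromosome 14) are among those set nearer to 0 in R-UUO.

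The sort was checked against markers of the cells it could hold. Over all 4 sorted populations the median level of miR-192-5p was 57045 CPM in LTL+ cells and 1819 to 2209 CPM in the others, and that of miR-194-5p was 1584 against 68.4 to 81.9 CPM, while miR-204-5p and miR-30a-5p were higher in ECs than in LTL+ cells and miR-215-5p was near 0. The summed level of the 5 proximal tubule markers was 161066 to 202846 CPM in sham and 73164 to 124887 CPM in R-UUO. The 5 leukocyte markers summed to 110 to 156 CPM in sham and 126 to 480 CPM in R-UUO. One of them, miR-150-5p, was more abundant in ECs (median 2836 CPM) than in F4/80hi macrophages (304 CPM), and without it the sums were 85.7 to 127 CPM and 113 to 313 CPM. The macrophage miR-511-3p was at 0 in every sham library and in 3 of 4 R-UUO libraries. The 2 endothelial markers summed to 675 to 945 CPM and 643 to 2237 CPM. Red cell miRNAs summed to at most 1.12 CPM in sham and 4.50 CPM in R-UUO, and miR-144-3p was at 0 in all 8.

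The 5 stromal and mural markers summed to 1932 to 4181 CPM in sham and 4221 to 31334 CPM in R-UUO, and to 4221 to 6916 CPM without replicate 1. Of these, the fibroblast miR-199a-3p had 113 to 137 CPM in sham and 103 to 144 CPM in R-UUO. MiR-145a-5p, of smooth muscle and pericytes, had 18.3, 19.2, 12.6 and 8.95 CPM in sham and 920, 39.2, 127 and 59.9 CPM in R-UUO. All R-UUO libraries were higher, replicate 1 by far. As fitted, its log2 fold change was 4.29 ± 0.85 (edgeR adjusted p = 0.00106), and 2.33 ± 0.45 without replicate 1. MiR-143-3p, from the same cluster, went from 2796 ± 912 to 11452 ± 12551 CPM, with a log2 fold change of 2.03 ± 0.54, and 0.91 ± 0.33 without replicate 1. The whole cluster had 4 of 4 loci higher, and 2 without replicate 1, beside 25.8% and 18.8% of all tested loci.

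Of the 4 endothelial miR-126 loci, miR-126a-3p and miR-126b-5p were higher, and none without replicate 1. These 2 lie antisense to each other with nearly the same counts, so they are in effect 1 set of reads. Of the leukocyte loci 4 of 5 were higher both ways, beside 25.8% and 18.8% of all tested loci, with a median of 1.45 beside 0.03. With all libraries the 4 were miR-142a-5p, miR-150-5p and both arms of the miR-342 hairpin, and miR-223-3p was not called. MiR-142a-5p had 120, 89.5, 80.3 and 87.3 CPM in sham and 133, 110, 196 and 294 CPM in R-UUO. MiR-150-5p had 29.1, 34.5, 24.4 and 35.8 CPM in sham and 48.0, 13.1, 112 and 167 CPM in R-UUO, with R-UUO replicate 2 below every sham library. Their log2 fold changes were 0.96 ± 0.29 and 1.45 ± 0.56 (edgeR adjusted p = 0.0155 and 0.0479). The call of miR-142a-5p was lost without R-UUO replicate 5 (0.57) and without sham replicate 2, 3 or 4 (0.88 to 0.92), and that of miR-150-5p without 10 of the 12 libraries of these groups and UUO-7, with the lowest value, 0.80, without R-UUO replicate 5. MiR-155-5p and miR-146b-5p, which are not in the leukocyte sum, were also higher in R-UUO. Within R-UUO, replicate 4 had the lowest miR-155-5p and more miR-142a-5p than replicates 1 and 2. The part of RNA from other cells in these changes was not tested.

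To see where PT cells differed from the other cells of the same mice, the R-UUO change in LTL+ cells was set against the mean change in ECs, F4/80hi macrophages and PDGFR-β+ cells, in a model with a term for each mouse. Of 577 loci 65 changed more upwards in LTL+ cells (11.3%) and 58 more downwards (10.1%), with a median difference of -0.18 on the log2 scale. Without R-UUO replicate 1 the counts were 36 and 27. MiR-204-5p differed by 3.23 ± 0.39 (edgeR adjusted p = 1.23e-06), since its own log2 fold change was 3.16 in LTL+ cells, -1.87 in ECs, 1.70 in F4/80hi macrophages and 0.08 in PDGFR-β+ cells. MiR-141-3p differed by 3.05 ± 0.45 and miR-653-5p by 3.19 ± 0.66. All 3 differences were called without replicate 1 too.

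MiR-183-5p and miR-182-5p also rose in the other populations. MiR-183-5p had log2 fold changes of 2.67 in ECs, 3.31 in F4/80hi macrophages and 1.67 in PDGFR-β+ cells, and the rise in LTL+ cells was larger by 1.95 ± 0.51 (edgeR adjusted p = 0.00714). MiR-192-5p was lower in all of them, by log2 fold changes of -0.79, -1.32 and -1.26, and its difference in LTL+ cells, -0.59 ± 0.24, was not called (edgeR adjusted p = 0.0833).

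At several loci the change in LTL+ cells was below the mean change in the other populations. MiR-21a-5p had log2 fold changes of 2.45 in ECs, 0.93 in F4/80hi macrophages and 4.73 in PDGFR-β+ cells, so that LTL+ cells differed from the mean by -1.42 ± 0.29 (edgeR adjusted p = 0.0009). Its rise in LTL+ cells was larger than that in F4/80hi macrophages. MiR-146b-5p differed by -1.99 ± 0.23 and miR-1247-5p by -4.15 ± 0.65. MiR-181a-5p at its chromosome 2 locus, lower in LTL+ cells, had log2 fold changes of 0.52 in ECs, -0.02 in F4/80hi macrophages and 1.62 in PDGFR-β+ cells, a difference of -1.46 ± 0.16 (edgeR adjusted p = 6.51e-07). These differences held without replicate 1.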

How the data were processed

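Small RNA-Seq counts of 16 LTL+ libraries (4 for each of the 4 conditions) were fitted together. The authors trimmed reads (Trim Galore 0.4.1 and cutadapt 1.1, per the submitters' notes), used ShortStack for alignment to GRCm38 with miRBase annotation, and deposited unnormalized read counts for each mature miRNA locus. Whether counting used strand, and how reads fitting several loci were placed, is not given in the sources used here. Libraries are of separate mice.

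Loci were filtered with filterByExpr, scaled by TMM and tested with edgeR 4.0.16 (R 4.3.3, glmQLFit and glmQLFTest, Benjamini-Hochberg; adjusted p at most 0.05 and fold at least 1.5). Every locus kept its own counts. The comparison with the other populations used 32 libraries of sham and R-UUO mice with a mouse term. The scripts were first tested on simulated data. Alternatives were RLE and library-size scaling, DESeq2 1.42.0, limma 3.58.1 voom with sample weights, no filter, summed names, thinned counts, a replicate block, other sample sets and each replicate left out. The last 2 were chosen after seeing the data: sham and R-UUO without R-UUO replicate 1, and loci of identical counts counted once. Median depth was 752391 reads in sham and 1163320 in R-UUO.

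The 77 loci named by rule were the 15 highest and 15 lowest called folds of R-UUO over sham, the 10 and 5 of UUO-7 over sham, every call of R-UUO over UUO-7, a set of kidney injury miRNAs, and up to 2 members most abundant in sham from each list of families and cell markers. Other names were chosen after their values were seen. The comparison, members and lists were chosen with earlier results of these data known. RefSeq names and coordinates matched 293 of 330 tested loci. Counts of replicates differed by more than sampling noise, so none was counted once.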

Additional observations from a re-analysis of the deposited data

Results flagged for a closer look

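A library's distance from the other 3 of its group was tested for the named loci in sham and in R-UUO, 154 groups in all, by Dixon's test at the 95% level, which chance passes in about 1 of 20 groups. It was passed 14 times, 7 of them by R-UUO replicate 1. That library was the highest for miR-10a-5p (949266 CPM), miR-10b-5p (726683 CPM), miR-96-5p (303 CPM) and miR-100-5p (275 CPM), and the lowest for miR-6538 (34.5 CPM), miR-5126 (1.50 CPM) and miR-185-3p (0.751 CPM). R-UUO replicate 2 was apart for let-7f-5p of chromosome X (36915 CPM). In sham, replicate 1 was apart for miR-96-5p (1.08 CPM, 1 read), which the absence of reads in the other sham libraries fixes, replicate 2 for miR-23b-3p (446 CPM) and the antisense pair miR-3073a-3p and miR-3073b-5p (7.67 CPM each, from identical counts), and replicate 3 for miR-5119 (33.4 CPM) and miR-6236 (124 CPM).

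The change from sham to R-UUO differed between LTL+ cells and the mean of the other populations at 36 of the 77 named loci, by the edgeR test of that difference, beside 21.3% of all 577 loci. Many of the 77 were named for their large change in LTL+ cells, so their share is no result. Values are differences in log2 fold change, LTL+ minus others, beside a median of -0.18 over all loci. Upwards, miR-96-5p differed by 5.35, miR-204-5p by 3.23, miR-653-5p by 3.19, miR-141-3p by 3.05, miR-183-5p by 1.95 and miR-182-5p by 1.83. The miR-9-5p and miR-9b-3p pair of chromosome 7 and miR-181c-3p each differed by 3.06, miR-205-5p by 3.02, miR-145a-5p by 2.67, miR-322-5p by 2.44, miR-143-3p by 1.71, miR-34c-5p by 1.56, miR-10a-5p by 1.41 and miR-210-3p by 1.29. Smaller positive differences were found for miR-23b-3p (0.77), miR-125a-5p (0.75) and miR-92a-3p of chromosome 14 (0.64).

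The change in LTL+ cells was below the mean change in the other populations for miR-1247-5p (-4.15), miR-21a-3p (-2.54), miR-146b-5p (-1.99), miR-199b-3p (-1.84), miR-199a-3p of chromosome 1 (-1.77), miR-190a-5p (-1.72) and miR-324-3p (-1.56). For miR-181a-5p the differences were -1.46 at chromosome 2 and -1.45 at chromosome 1, for miR-21a-5p -1.42, for miR-6240 -1.32, for miR-92b-3p -1.31 and for miR-339-5p -1.07. The rest were miR-92a-3p of chromosome X (-0.99), miR-222-3p (-0.91), miR-194-5p of chromosome 19 (-0.72) and miR-221-3p (-0.59). Without R-UUO replicate 1, miR-205-5p, miR-324-3p, miR-143-3p, miR-194-5p of chromosome 19, miR-6240, miR-339-5p, miR-96-5p, miR-210-3p, miR-34c-5p, miR-190a-5p, miR-221-3p and miR-92a-3p of chromosome X were no longer called.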

How the results depend on the processing

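Depth limits loci of a few reads in sham, such as miR-96-5p and miR-181c-3p. Between R-UUO and sham, higher calls fell from 85 to 51 and lower calls rose from 43 to 65 with library size alone, and 52 were higher with only the 2 groups fitted and also when R-UUO replicate 1 was then left out. With one library left out, counts were 63 to 88 higher and 29 to 54 lower in R-UUO, 67 to 95 and 45 to 68 at UUO-7, and 53 to 67 and 25 to 39 for calls present in both. Lower calls present in both were 34, but 52 with library size alone and 22 with no filter. RLE scaling, DESeq2, limma voom, no filter, summed names, thinning and identical loci counted once gave 61 to 102 higher and 31 to 53 lower calls in R-UUO.

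R-UUO against UUO-7, with 2 higher and 3 lower calls, gave 0 and 0 with library size alone, with the replicate block and with only the 2 groups, 14 and 8 with DESeq2, 16 and 8 with no filter, and 4, 0 and 1 higher with limma voom, summed names and thinning, and 0 to 11 higher and 0 to 8 lower with one library left out. In the comparison with the other populations, library size alone gave 41 higher calls (median difference -0.50), no filter 38 lower, and leaving out R-UUO replicate 1 gave 36 and 27. Summed names joined both copies of miR-92a-3p, and their sum had a log2 fold change of 0.12 between R-UUO and sham. The other causes were not tested.

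Sham and R-UUO libraries of the same number come from different mice, and their deviations had r of 0.0728, -0.0937 and 0.0899, so the numbers do not pair them. A fit with the replicate number as a block gave 78 higher and 36 lower calls in R-UUO, 81 and 57 at UUO-7, and 64 and 30 present in both. Of the 77 named loci, 65 kept direction and side of the threshold with library size alone and 70 without R-UUO replicate 1.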
